A study of Mus musculus with 4 samples.

Results

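The mRNAs of the oxidative phosphorylation complexes were followed in livers of mice fed a high-fat diet (HFD) with and without ADAR2. Genes were taken by name: the nuclear genes beginning with Ndufa, Ndufb, Ndufc, Ndufs or Ndufv and a digit, with Uqcr, with Cox4 to Cox8 or with Atp5, and the mitochondrial DNA (mtDNA) genes mt-Nd, mt-Cytb, mt-Co and mt-Atp, each with at least 40 reads over the 4 libraries together. This gave 88 of the 25655 genes in the table, 75 of them encoded in nuclear DNA and 13 in mtDNA. The rule itself uses no expression difference, but the members were chosen with earlier results of these data known.

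Liver RNA selected for poly(A) was sequenced from HFD-WT mice (2 libraries) and from HFD-KO mice (2 libraries). HFD-WT mice were ADAR2 +/+ and HFD-KO mice were ADAR2 -/-, obtained by crossing heterozygous mice kept on a B6129S background. All animals, controls included, were GluR-B R/R, an allele that keeps mice without ADAR2 alive. HFD feeding began at 5 weeks of age and lasted 12 weeks in both groups. ADAR2 was absent from the whole animal and not from hepatocytes alone, and the labels used here hold no normal-diet group. The labels do not state the sex of the sequenced mice, and per the study's text the work was limited to males before the RNA was sequenced. The study names more mice per group for this comparison than there are libraries, and how many mice stand behind each library is not given in the sources used here, so the p-values measure the spread between these libraries only.

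Oxidative phosphorylation is the chain of inner-membrane enzymes that passes electrons from NADH and succinate to oxygen, pumps protons, and lets the protons flow back through ATP synthase. Complexes I, III, IV and V are built from subunits of both genomes: mtDNA encodes a few hydrophobic core proteins, and nuclear genes encode all other subunits, which are imported. In liver the chain reoxidises the NADH and FADH2 of fatty acid oxidation, and the mtDNA-encoded subunits are made from polycistronic transcripts that are cut into separate mRNAs.

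The mtDNA genes lie so close together that neighbours share bases, and 4 neighbouring pairs of the 13 overlapped. The overlaps are shown because reads within them cannot be given to 1 gene by position, and because the shortest genes, mt-Atp8 with 204 bases and mt-Nd4l with 297 bases, lie in them. The mt-Atp8 and mt-Atp6 genes share 43 bases at MT:7927-7969, and mt-Nd4l and mt-Nd4 share 7 bases at MT:10167-10173, on the plus strand, with identical positions in GENCODE M21 and in the deposited table. The capitals mark the start codon of the downstream gene, which lies inside the upstream gene.
mt-Atp8/mt-Atp6: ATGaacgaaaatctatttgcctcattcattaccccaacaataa
mt-Nd4l/mt-Nd4: ATGctaa

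The mt-Nd5 and mt-Nd6 genes share 14 bases at MT:13552-13565 but are read from opposite strands, and mt-Nd6 is the only member transcribed from the other strand of mtDNA. The mt-Co3, mt-Nd4 and mt-Cytb genes end with 1 base (T) after their last full codon, and their stop codon is completed by the poly(A) tail. The pairs mt-Atp8/mt-Atp6 and mt-Nd4l/mt-Nd4 are each carried on 1 bicistronic mRNA.

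The libraries held between 24480798 and 28691330 reads on genes, and 3 reads, taken as the smallest detectable amount, were 0.105 to 0.123 CPM (counts scaled to a fixed library size, counting error only). Adarb1, the gene of ADAR2, had 15.7 and 19.8 CPM in HFD-WT and 6.23 and 9.54 CPM in HFD-KO (log2 fold change -1.17, standard error (SE) 0.20, adjusted p = 0.159 by edgeR's quasi-likelihood test). The hepatocyte markers were abundant in every library, with a summed level for 6 genes of 71436 and 72382 CPM in HFD-WT and 71770 and 85332 CPM in HFD-KO, and 1 of them, Serpina1a, was higher in HFD-KO at an unadjusted p under 0.05. Markers of other cells moved unevenly. At unadjusted p under 0.05, 6 of 7 Kupffer cell and macrophage markers were lower in HFD-KO (summed 342 and 426 against 270 and 260 CPM). So were 3 of 5 stellate cell markers (summed 291 and 320 against 253 and 188 CPM). Only 1 of 5 sinusoidal endothelial markers, Lyve1, was lower (all 5 summed 183 and 202 against 177 and 194 CPM). Of the 4 cholangiocyte markers 0 passed. Of the 5 erythroid markers 3 were higher (757 and 600 against 810 and 1146 CPM), and of the 4 B and plasma cell markers 3 were higher, with 118 CPM in HFD-KO replicate 1 against 13.6 to 16.3 CPM in the other libraries. Over all genes tested 4.73% were lower and 4.25% higher at this threshold. None of these markers passed an adjusted p under 0.05 by edgeR. By DESeq2's Wald test 3 macrophage, 2 stellate and 1 endothelial marker did, against 115 of the 12967 genes tested. The part of these markers in the results below was not tested. In bulk liver, fewer cells of a type and less RNA per cell cannot be told apart.

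No member differed between the genotypes at an adjusted p under 0.05, where 10 of 12967 genes tested (0.0771%) passed, 7 of them higher (0.054%) and 3 lower (0.0231%) in HFD-KO. At an unadjusted p under 0.05 2 of the 88 members passed, Ndufa4l2 higher and Cox7a1 lower, against 8.98% of all genes tested (4.25% higher and 4.73% lower), and the smallest adjusted p of a member was 0.518. By DESeq2's Wald test 0 members passed an adjusted p under 0.05, against 115 of the 12967 genes tested. The median log2 fold change of the members was -0.021, with 60 of 88 below 0, beside 0.0068 and 48.4% over all genes tested. The HFD-KO and HFD-WT libraries overlapped in 65 of 88 members, while 5 were higher and 18 were lower in each HFD-KO library than in any HFD-WT library. Over all genes tested 40.8% did not overlap in this sense, 20.5% higher and 20.3% lower.

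The intervals of these differences were narrow for most nuclear members and wider for the mtDNA-encoded members. The median SE was 0.089 for the nuclear and 0.162 for the mtDNA-encoded members, beside 0.122 over all genes tested. The 95% interval of the fold change lay within 1.5-fold in either direction for 85 of 88 members, compared with 65.2% of all genes tested, and the exceptions were Ndufa4l2, Cox7a1 and mt-Nd6, which have the lowest counts of the members. With these 4 libraries, changes of more than 1.5-fold were therefore outside the interval for all other members, while smaller changes were not resolved.

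**Figure D1:**
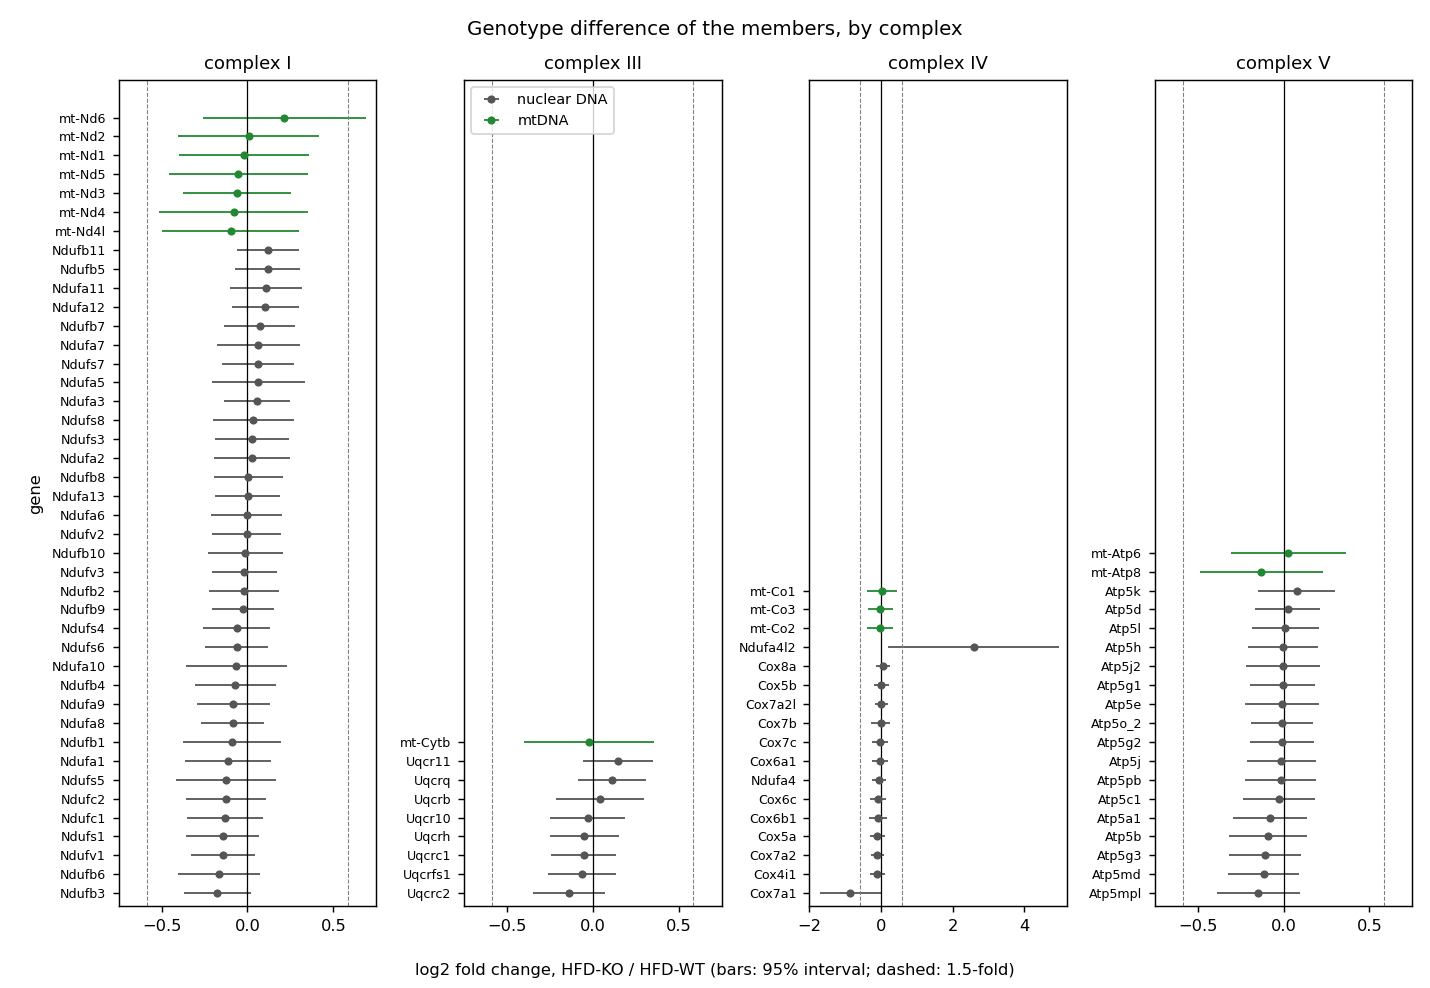
Log2 fold change of HFD-KO over HFD-WT (horizontal axis) with its 95% interval from edgeR for the members drawn (vertical axis), by complex, with nuclear genes in grey and mtDNA genes in green. The horizontal axis of complex IV is wider than that of the others. The intervals of Ndufa4l2, Cox7a1 and mt-Nd6 cross the dashed lines at 1.5-fold, and those of the other genes drawn stay between them.

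The nuclear and mtDNA-encoded members had near-equal medians, -0.019 for the 75 nuclear and -0.024 for the 13 mtDNA-encoded genes. They differed in how far the HFD-KO libraries lay apart. The mtDNA-encoded members took 7.09% and 6.93% of all reads in HFD-WT replicates 1 and 2, and 7.71% and 5.80% in HFD-KO replicates 1 and 2. The HFD-KO libraries thus held the highest and the lowest share, on either side of HFD-WT. The nuclear members took 1.13% and 1.12% of reads in HFD-WT and 1.10% and 1.02% in HFD-KO.

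The ratio of mtDNA-encoded to nuclear reads, which does not depend on how libraries are scaled, was 6.25 and 6.18 in HFD-WT and 6.98 and 5.66 in HFD-KO. The log2 of this ratio was 0.017 higher in HFD-KO, with a pooled standard deviation (SD) between replicates of 0.151, so the difference was smaller than the spread. It was -0.134 without HFD-KO replicate 1 and 0.168 without HFD-KO replicate 2. No test was made, because 2 against 2 libraries cannot give an exact permutation p below 0.333.

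**Figure D2:**
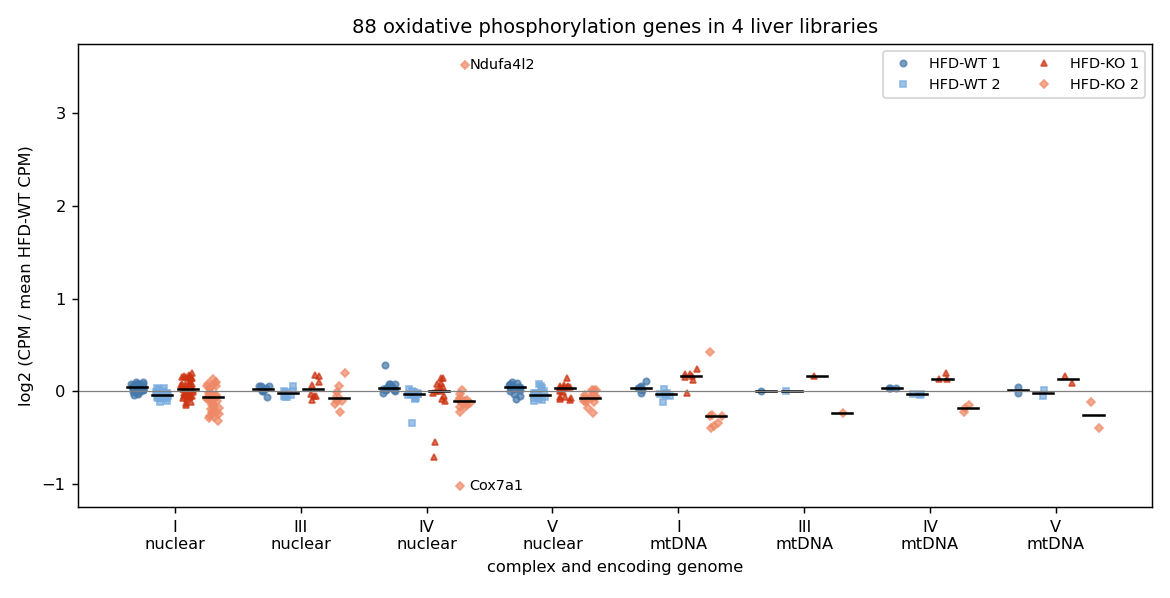
Log2 of each member's CPM over its mean in HFD-WT (vertical axis) in the 4 libraries, by complex and encoding genome (horizontal axis). Points are genes and black bars are medians. In the mtDNA-encoded groups nearly all points of HFD-KO replicate 1 lie above 0 and those of HFD-KO replicate 2 below 0, and Ndufa4l2 stands alone at the top.

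Levels were compared between genes on the authors' TPM, in which counts are divided by gene length and scaled to a fixed sum per library. The mtDNA-encoded mRNAs were the most abundant: mt-Co1, the catalytic subunit of complex IV, had a mean of 26783 TPM over the 4 libraries, followed by mt-Co2 with 20563 and mt-Co3 with 18199 TPM. The ATP synthase subunit mt-Atp6 had 16672 TPM and cytochrome b, mt-Cytb, had 13230 TPM. The 7 mtDNA-encoded complex I genes were lower, with a median of 4347 TPM and mt-Nd4 highest at 9293 TPM. The exception was mt-Nd6, with 20.8 TPM. Together the 13 mRNAs made up 14.4% and 14.2% of the TPM total in HFD-WT and 15.2% and 11.9% in HFD-KO.

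The nuclear subunits were lower, with a median of 138 TPM in complex I, 349 TPM in complex III, 338 TPM in complex IV and 268 TPM in complex V. With the gene length of the table, the highest of each were Ndufb9 (405 TPM) and Ndufa7 (301 TPM) in complex I, Uqcr11 (589 TPM) and Uqcr10 (496 TPM) in complex III, Cox4i1 (936 TPM) and Cox6a1 (860 TPM) in complex IV, and Atp5b (1130 TPM) and Atp5g3 (956 TPM) in complex V. With that length the lowest were Ndufb2 (12.6 TPM), Uqcrc2 (233 TPM), Cox7a1 (4.65 TPM) and Atp5g1 (40.1 TPM).

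Both the lowest and the highest genes depended on the length used. The table divides by a length that can include the exons of several transcripts, and with the length of the principal transcript in GENCODE M21, an alternative chosen after seeing the data, 20 of the 74 nuclear members with such a transcript had a level more than 1.5 times higher. Ndufb2 then had 121 TPM and Atp5g1 had 330 TPM, within the range of the other subunits of their complexes, while Cox7a1 had 6.33 TPM and Ndufa4l2 stayed at 11.2 TPM. Among the high levels, Uqcrq, a small subunit of complex III, moved from 325 to 1464 TPM and was then above Uqcr11 at 589 TPM. Ndufa4 moved from 808 to 1115 TPM, above Cox6a1 at 860 TPM, and in complex I Ndufa6 with 391 TPM and Ndufb8 with 304 TPM were then above Ndufa7 at 301 TPM. These genes other than Ndufa4 were named after their values were seen. Fold changes between genotypes do not contain the length.

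**Figure D3:**
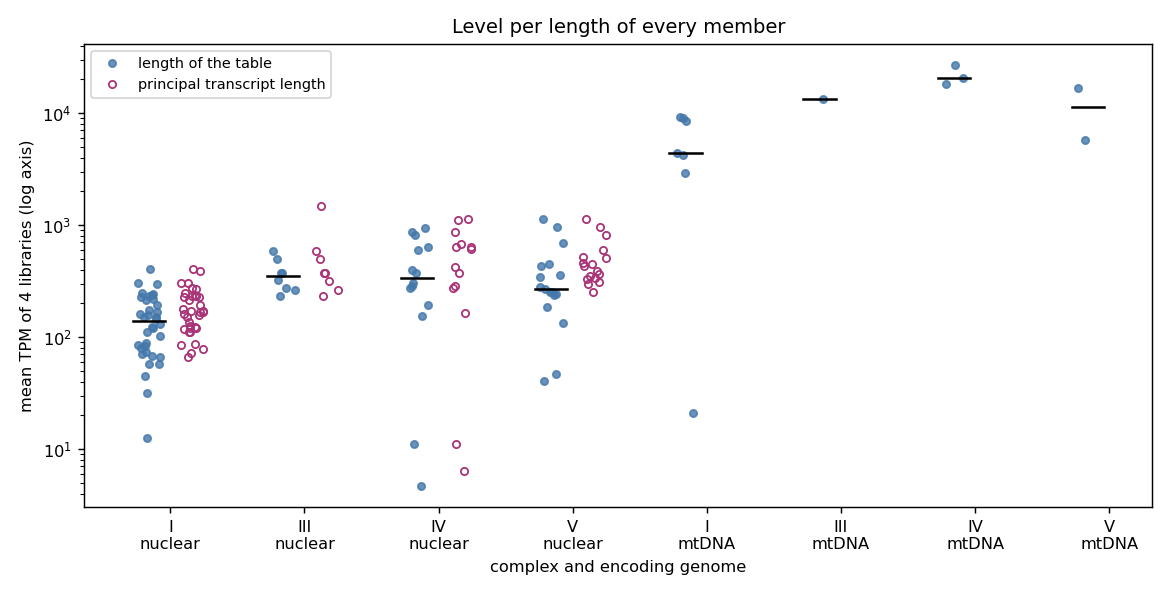
Mean TPM over the 4 libraries (vertical log axis) of each member by complex and encoding genome (horizontal axis), with the table's length in filled circles (black bars are medians) and with the principal transcript's length in open circles. The mtDNA-encoded genes lie above the nuclear genes except for mt-Nd6 at 20.8 TPM.

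Complex I oxidises NADH and is the largest of the complexes. Its 36 nuclear members had a median log2 fold change of -0.019, from -0.18 for Ndufb3 to 0.12 for Ndufb11, and none passed an unadjusted p under 0.05. The 7 nuclear core subunits, which hold the flavin and the iron-sulfur clusters, had a median of -0.005, and the 29 supernumerary subunits had a median of -0.019. Ndufv1, the flavin-binding NADH dehydrogenase subunit, had 155 and 146 CPM in HFD-WT and 136 and 136 CPM in HFD-KO. Both HFD-KO libraries were below both HFD-WT libraries, by a log2 fold change of -0.14 (SE 0.08, adjusted p = 0.652 by edgeR).

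Ndufs1, the largest iron-sulfur subunit of complex I, had 109 and 108 CPM in HFD-WT and 104 and 91.5 CPM in HFD-KO, a log2 fold change of -0.14 (SE 0.09, adjusted p = 0.684 by edgeR). Other core subunits lay closer to 0. The log2 fold changes of Ndufv2, Ndufs3, Ndufs7 and Ndufs8 were -0.005, 0.027, 0.063 and 0.035, with overlapping groups in each. Among the accessory subunits, the abundant Ndufb9 had 149 and 142 CPM in HFD-WT and 143 and 143 CPM in HFD-KO, and Ndufa7 had 82.9 and 74.6 against 88.5 and 76.0 CPM.

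Ndufb3 and Ndufb11, named after their values were seen, mark the ends of the complex I range. Ndufb3 had 45.5 and 46.0 CPM in HFD-WT and 41.9 and 39.1 CPM in HFD-KO, and Ndufb11 had 103 and 99.2 CPM in HFD-WT and 111 and 109 CPM in HFD-KO. Neither pair of groups overlapped, yet the adjusted p values were 0.599 and 0.696 by edgeR. In complex I 3 of the 36 nuclear members were higher and 9 were lower in both HFD-KO libraries, against 20.5% and 20.3% of all genes tested.

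Complex III passes electrons from ubiquinol to cytochrome c. Its 8 nuclear members had a median log2 fold change of -0.040. Uqcrc2, a core protein, had 234 and 235 CPM in HFD-WT and 226 and 200 CPM in HFD-KO (log2 fold change -0.14, SE 0.09, adjusted p = 0.696 by edgeR). Its partner Uqcrc1 had 275 and 261 CPM in HFD-WT and 258 and 259 CPM in HFD-KO, also without overlap. Uqcrfs1, the Rieske iron-sulfur protein, had 193 and 178 against 182 and 173 CPM, with overlap.

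In the opposite direction, Uqcr11, a small accessory subunit, had 121 and 131 CPM in HFD-WT and 135 and 145 CPM in HFD-KO. Its log2 fold change of 0.15 (SE 0.09, adjusted p = 0.668 by edgeR) was the largest among the nuclear members other than Ndufa4l2. Uqcrq, the other member higher in both HFD-KO libraries, had 289 and 289 CPM in HFD-WT and 323 and 301 CPM in HFD-KO (log2 fold change 0.11, SE 0.08, adjusted p = 0.737 by edgeR). The small subunits Uqcr10, Uqcrh and Uqcrb, the last 2 also named after their values were seen, overlapped between the groups, with log2 fold changes of -0.030, -0.051 and 0.043, and Uqcr10 had 111 and 109 against 116 and 100 CPM. In complex III 2 nuclear members were thus higher and 2 lower in both HFD-KO libraries, with 4 overlapping. Over all genes tested 20.5% were higher and 20.3% lower in this way.

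Complex IV, cytochrome c oxidase, reduces oxygen. Its 14 nuclear members had a median log2 fold change of -0.044. They count Ndufa4, which is a complex IV subunit in spite of its name, and Ndufa4l2, grouped here with Ndufa4. Of these members 4 were lower and 0 higher in both HFD-KO libraries, against 20.3% and 20.5% of all genes tested. Cox4i1, the ubiquitous form of subunit 4, had 453 and 437 CPM in HFD-WT and 429 and 400 CPM in HFD-KO, a log2 fold change of -0.10 (SE 0.09, adjusted p = 0.773 by edgeR). Cox6a1 had 255 and 247 against 265 and 229 CPM, Cox6b1 had 211 and 199 against 212 and 175 CPM, Cox7b had 142 and 137 against 154 and 124 CPM, and Cox8a had 186 and 183 against 203 and 181 CPM. In the last 4 of these genes HFD-KO replicate 1 was the highest library and HFD-KO replicate 2 the lowest.

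Complex V, the ATP synthase, had 17 nuclear members with a median log2 fold change of -0.009. Of these members 3 were lower and 0 higher in both HFD-KO libraries, against 20.3% and 20.5% of all genes tested. The F1 part of the enzyme holds the alpha and beta subunits. Atp5b, the catalytic beta subunit, had 1086 and 1174 CPM in HFD-WT and 1077 and 1046 CPM in HFD-KO, and Atp5a1, the alpha subunit, had 1013 and 1060 CPM in HFD-WT and 980 and 983 CPM in HFD-KO. Their log2 fold changes were -0.09 and -0.08 (SE 0.10 and 0.09, adjusted p = 0.829 and 0.845 by edgeR). The groups did not overlap in either gene, but the gap between them was smaller than the difference between the HFD-WT libraries.

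The c-ring of the ATP synthase is encoded by Atp5g1, Atp5g2 and Atp5g3, which give the same mature protein. Per length Atp5g3 was the highest of them, with 956 TPM against 133 TPM for Atp5g2 and 40.1 TPM for Atp5g1. The distance between them depended on the length, since with the principal transcript they had 969, 506 and 330 TPM. The level of Atp5g3 was 381 and 346 CPM in HFD-WT and 340 and 334 CPM in HFD-KO, a log2 fold change of -0.11 (SE 0.09, adjusted p = 0.761 by edgeR). Atp5g1 had 102 and 97.6 against 103 and 96.6 CPM, and Atp5g2 had 117 and 110 against 113 and 113 CPM, with log2 fold changes of -0.005 and -0.009. The intervals of all 3 genes lay within 1.5-fold.

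Subunits of complex IV with isoforms for other tissues were nearly silent. Of the names that matched, 9 genes stayed under 40 reads: Cox6b2 with 27 reads in all, Cox4i2 with 11, Cox8b with 6, the pseudogene Cox5b-ps with 6 and Cox6a2 with 4, and Cox7b2, Cox8c, Ndufb11b and Atp5o_1 with 0, which allows up to 0.105 to 0.123 CPM in each library. Just inside the limit were Cox7a1 with 137 reads, Ndufa4l2 with 524 and mt-Nd6 with 579.

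Cox7a1 encodes the heart and muscle form of subunit 7a of complex IV. It was counted 57 and 35 times in HFD-WT and 26 and 19 times in HFD-KO, or 1.97 and 1.27 CPM against 0.987 and 0.795 CPM. Both HFD-KO libraries were below both HFD-WT libraries, and HFD-WT replicate 2 was itself at 0.646 times HFD-WT replicate 1. The log2 fold change was -0.86 (SE 0.36, unadjusted p = 0.0484, adjusted p = 0.549 by edgeR). It passed the unadjusted threshold only by a small margin, and over the alternatives its log2 fold change ranged from -1.13 to -0.51, and its adjusted p was 0.273 or above in each of them. The muscle markers Acta1, Ckm, Myh1 and Myh4 were between 0 and 0.69 CPM in every library. Of these few reads, Myh4 had 0.69 and 0.254 CPM in HFD-WT and 0.266 and 0.167 CPM in HFD-KO. Ckm had 0.207 and 0.0727 against 0.0759 and 0 CPM. Both, like Cox7a1, were highest in HFD-WT replicate 1 and lowest in HFD-KO replicate 2. Acta1 was instead highest in HFD-KO replicate 2, with 0.138 and 0 CPM in HFD-WT and 0.0759 and 0.251 CPM in HFD-KO. Myh1 had 0.104 and 0 against 0 and 0 CPM. Many of these values lay near or under the smallest detectable amount, 0.105 to 0.123 CPM. Of the brown fat markers in the same list, Ucp1 was at 0 to 0.0419 CPM, and Cidea had 55.8 and 43.1 CPM in HFD-WT and 30.7 and 54.5 CPM in HFD-KO. The part of muscle RNA in the Cox7a1 reads was not tested.

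The liver form Cox7a2 had 98.4 and 96.7 CPM in HFD-WT and 90.9 and 91.2 CPM in HFD-KO (log2 fold change -0.10, SE 0.08, adjusted p = 0.741 by edgeR). Per length it was far above Cox7a1, with 283 against 4.65 TPM. Cox7a2l, which joins complexes III and IV in supercomplexes, had 88.3 and 90.9 against 89.8 and 90.6 CPM.

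Ndufa4l2 encodes an NDUFA4-like protein known as a target of hypoxia-inducible factor. It was counted 46 and 39 times in HFD-WT replicates 1 and 2, and 27 and 412 times in HFD-KO replicates 1 and 2, which is 1.59 and 1.42 CPM against 1.03 and 17.2 CPM. HFD-KO replicate 2 was 16.8-fold above HFD-KO replicate 1, and HFD-KO replicate 1 was the lowest of all libraries. The log2 fold change of 2.59 (SE 1.02, unadjusted p = 0.038, adjusted p = 0.518 by edgeR) therefore rests on 1 library. It was -0.55 without HFD-KO replicate 2 and 3.52 without HFD-KO replicate 1.

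The Ndufa4l2 gene lies on the plus strand at chr10:127350836-127353023 in the coordinates of the table and overlaps Shmt2 on the other strand. Whether reads were counted by strand is not given in the sources used here. Shmt2, a mitochondrial serine hydroxymethyltransferase, had 238 and 239 CPM in HFD-WT and 258 and 261 CPM in HFD-KO. Whether reads of Shmt2 had a part in the Ndufa4l2 counts was not tested. Ndufa4 itself had 267 and 256 CPM in HFD-WT and 258 and 241 CPM in HFD-KO, a log2 fold change of -0.07. Even in HFD-KO replicate 2, Ndufa4l2 had 36.1 TPM and Ndufa4 had 756 TPM.

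**Figure D4:**
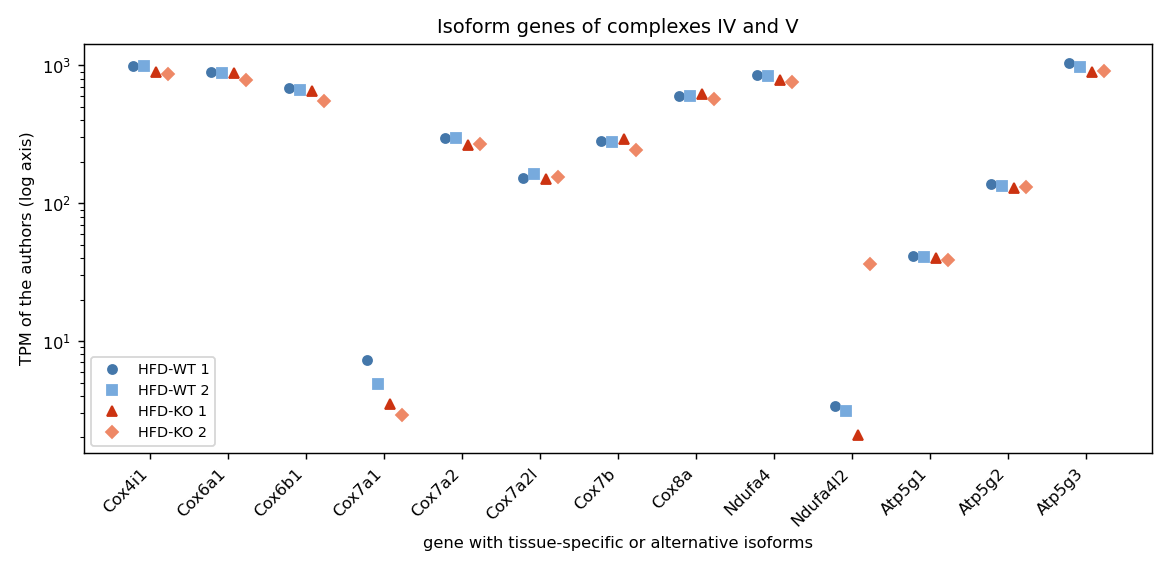
TPM of the authors (vertical log axis) in the 4 libraries for genes with alternative isoforms (horizontal axis). Ndufa4l2 is at 2.09 to 3.39 TPM in 3 libraries and at 36.1 TPM in HFD-KO replicate 2, and Cox7a1 falls between 2.91 and 7.32 TPM, while the main liver forms differ little between libraries.

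Each of the 13 mtDNA-encoded mRNAs had overlapping groups, while 40.8% of all genes tested did not overlap. For mt-Co1 the level was 21231 and 20276 CPM in HFD-WT and 23779 and 18678 CPM in HFD-KO (log2 fold change 0.03, SE 0.18, adjusted p = 0.974 by edgeR). For mt-Co2 it was 7413 and 7026 against 7916 and 6171 CPM, and for mt-Co3 7429 and 7125 against 7962 and 6421 CPM. In all 3 genes HFD-KO replicate 1 was highest and HFD-KO replicate 2 lowest.

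The mtDNA-encoded complex I genes spread further. The membrane subunit mt-Nd4 had 6584 and 6754 CPM in HFD-WT and 7473 and 5155 CPM in HFD-KO (log2 fold change -0.08, SE 0.19, adjusted p = 0.929 by edgeR). Of its neighbours, mt-Nd4l had 681 and 639 against 733 and 500 CPM, and mt-Nd5 had 2757 and 2695 against 3096 and 2156 CPM. The ratio of HFD-KO replicate 2 to HFD-KO replicate 1 was 0.69 for mt-Nd4, 0.68 for mt-Nd4l and 0.70 for mt-Nd5.

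The genes near the start of the coding strand behaved alike, with 4470 and 4273 against 4960 and 3658 CPM for mt-Nd1 and 4596 and 4278 against 5219 and 3695 CPM for mt-Nd2. For mt-Nd3 the level was 798 and 770 against 849 and 651 CPM. Of the others, mt-Cytb had 7731 and 7743 against 8648 and 6574 CPM. These log2 fold changes lay between -0.063 and 0.0064.

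The ATP synthase genes on 1 mRNA moved unequally. mt-Atp6 had 5889 and 5514 CPM in HFD-WT and 6389 and 5242 CPM in HFD-KO, and mt-Atp8 had 616 and 630 against 665 and 474 CPM. Their log2 fold changes were 0.03 and -0.13 (SE 0.14 and 0.15, adjusted p = 0.973 and 0.845 by edgeR). The difference between the 2 genes was not tested.

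mt-Nd6, the single gene of the other strand, ran against the rest. It had 5.45 and 4.65 CPM in HFD-WT and 4.97 and 6.78 CPM in HFD-KO, from 158, 128, 131 and 162 reads, so that HFD-KO replicate 2 was the highest library where it was the lowest for the other 12 genes. Its log2 fold change was 0.21 (SE 0.20, adjusted p = 0.797 by edgeR). The mature mt-Nd6 mRNA is known to carry little or no poly(A), and the libraries were made from poly(A) RNA. Whether this had a part in the values of mt-Nd6 was not tested. How reads in its overlap with mt-Nd5 were assigned is not given in the sources used here.

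**Figure D5:**
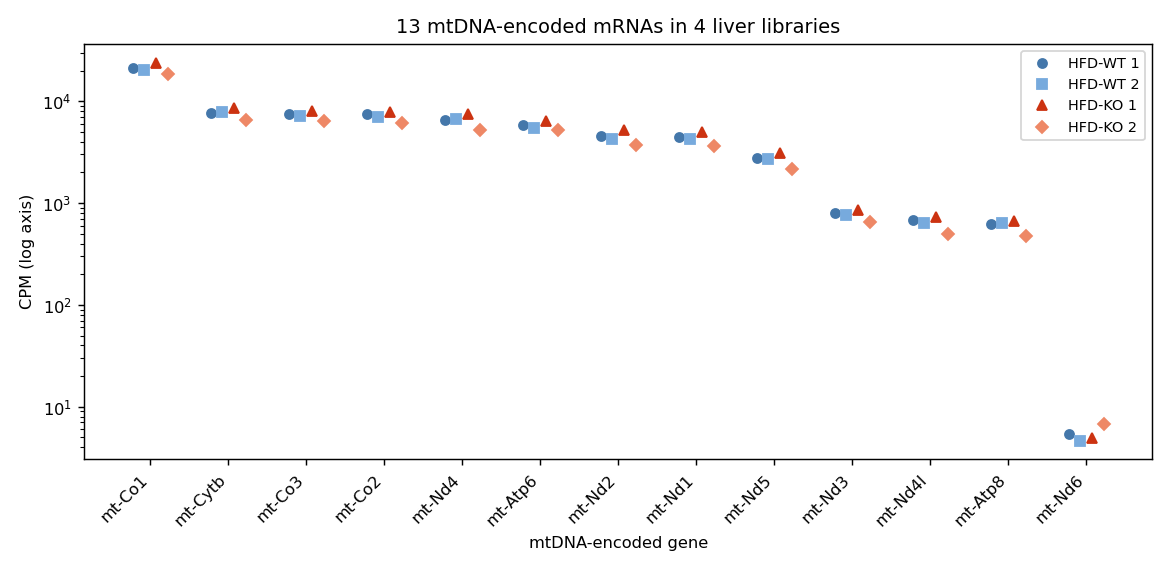
CPM (vertical log axis) of the 13 mtDNA-encoded genes (horizontal axis, in order of their HFD-WT mean) in the 4 libraries. For 12 genes HFD-KO replicate 1 is the highest and HFD-KO replicate 2 the lowest point, and mt-Nd6 near 5 CPM has HFD-KO replicate 2 on top.

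The HFD-KO libraries decided the direction for mtDNA. Without HFD-KO replicate 1 the median log2 fold change of the 13 genes was -0.256. It was -0.40 for mt-Nd4l, -0.37 for mt-Nd4, -0.39 for mt-Atp8 and -0.34 for mt-Nd5 in this setting. Without HFD-KO replicate 2 the median of the 13 genes was 0.160. These fits set 1 HFD-KO library against 2 HFD-WT libraries and assume that the lone library varies like the others.

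The spread between the HFD-KO libraries also reached the nuclear members, at a smaller size. HFD-KO replicate 2 was below HFD-KO replicate 1 in 58 of 75 nuclear and 12 of 13 mtDNA-encoded members, against 50.7% of all genes tested, with median log2 ratios of -0.103 and -0.396. It was the lowest of the 4 libraries for 57 of 88 members, against 29.2% of all genes tested. In HFD-WT, replicate 2 was below replicate 1 in 74 of 88 members, against 49.8% of all genes tested, with a median log2 ratio of -0.076 for the nuclear members. Libraries of the same genotype thus shifted the members together. HFD-KO replicate 2 also had the highest summed hepatocyte marker level (85332 CPM). Of this, Alb, the gene of albumin, held 66078 CPM against 52656 to 54879 CPM in the others. Cps1, Hnf4a and Serpina1a were also highest there, while Ttr (5015 CPM) and Apoa1 (7174 CPM) were higher in HFD-KO replicate 1 (5561 and 7327 CPM). HFD-KO replicate 2 gave 18.0% of its reads to its 10 most abundant genes, against 16.7% to 16.9% in the others. It had the most erythroid and the least stellate cell marker RNA (1146 and 188 CPM), and HFD-KO replicate 1 had the most B and plasma cell marker RNA (118 CPM). The part of these in the shift was not tested.

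The genes that build and supply the chain were read from lists. Complex II and the electron carriers (12 genes) had a median log2 fold change of -0.056, and 1 gene passed an unadjusted p under 0.05: Coq7, a hydroxylase of ubiquinone synthesis, with 29.2 and 26.3 CPM in HFD-WT and 22.5 and 22.7 CPM in HFD-KO (log2 fold change -0.30, adjusted p = 0.402 by edgeR). Cyc1 and Ndufab1, subunits that the naming rule does not catch, had log2 fold changes of 0.014 and 0.016.

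Among 46 assembly factors tested, Sco2 was higher and Coa6 was lower at the unadjusted threshold, both of which deliver copper to complex IV. Sco2 had 49.5 and 53.7 CPM in HFD-WT and 75.6 and 67.0 CPM in HFD-KO (log2 fold change 0.47, SE 0.10, unadjusted p = 0.0015, adjusted p = 0.233 by edgeR). The Sco2 gene overlaps Tymp on the same strand, which had 78.2 and 103 against 127 and 113 CPM (log2 fold change 0.41), and how reads were split between the pair was not tested. Sco2 passed an adjusted p under 0.05 in 4 alternatives, at 0.0418 with no count filter, 0.0401 by DESeq2's Wald test, 0.0216 without HFD-KO replicate 1 and 0.00073 without HFD-KO replicate 2. It did not pass in the others, where the adjusted p reached 0.9998 without HFD-WT replicate 2. Coa6 had 21.6 and 21.9 CPM in HFD-WT and 17.9 and 18.0 CPM in HFD-KO (log2 fold change -0.28, adjusted p = 0.402 by edgeR).

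For mtDNA expression, 38 genes had a median log2 fold change of 0.018. Ssbp1, the mitochondrial single-stranded DNA-binding protein, was the only one past the unadjusted threshold, with 12.7 and 10.8 CPM in HFD-WT and 15.8 and 13.7 CPM in HFD-KO (log2 fold change 0.33, adjusted p = 0.509 by edgeR). Tfam, which packages mtDNA and starts its transcription, had 35.1 and 33.4 against 36.2 and 37.8 CPM (log2 fold change 0.11). Of 78 mitochondrial ribosomal protein genes, Mrpl38 and Mrpl52 were higher at the unadjusted threshold, each by 0.24 on the log2 scale, and the median was 0.014.

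None of the 16 regulators tested passed the unadjusted threshold. Ppargc1a, the coactivator PGC-1alpha, had 8.73 and 9.56 CPM in HFD-WT and 8.35 and 9.58 CPM in HFD-KO (log2 fold change -0.03, 95% interval -0.34 to 0.28). The log2 fold changes of its partners were -0.06 for Nrf1, 0.08 for Gabpa, -0.05 for Esrra and 0.08 for Ppargc1b. In each of these lists 0 genes passed an adjusted p under 0.05 by edgeR, against 10 of all 12967 genes tested. By DESeq2's Wald test only Sco2 did, against 115 of the 12967. At the unadjusted threshold 1 of 12, 2 of 46, 1 of 38, 2 of 78 and 0 of 16 passed, against 8.98% of all genes tested.

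The promoters of the nuclear members, 250 bases before to 50 after the start in RefSeq on GRCm38.p6, were found for 63 of 75 genes, and were searched on both strands for short motifs of the factors above. GCGCATGC, the core bound by NRF1, was in 9 promoters (14.3%, against 3.05% of all 27025 gene promoters), and CCGGAAG, the ETS core bound by GABP, was in 15 (23.8% against 9.93%). AAGGTCA, bound by estrogen-related receptors, was in 7 (11.1% against 5.38%), and AAGATGG, bound by YY1, was in 11 (17.5% against 7.28%). At least 1 of the 4 motifs was in 34 of the 63 promoters (54.0% against 23.1%), and the others, among them that of Atp5b, the most abundant nuclear member with the table's length, held none. A match describes letters only and is not a binding site.

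Cox6a1 and Atp5l, promoters with several of the motifs, are shown beside Cox7a1, whose promoter held none of the 4 motifs and whose mRNA was the rarest member per length. The 250 bases before the start are given 5′ to 3′ on the strand of the gene, at chr5:115348959-115349208 (minus strand) for Cox6a1, chr9:44920743-44920992 (minus strand) for Atp5l and chr7:30183921-30184170 (plus strand) for Cox7a1 on GRCm38.p6. Capitals mark motif matches on either strand.
Cox6a1: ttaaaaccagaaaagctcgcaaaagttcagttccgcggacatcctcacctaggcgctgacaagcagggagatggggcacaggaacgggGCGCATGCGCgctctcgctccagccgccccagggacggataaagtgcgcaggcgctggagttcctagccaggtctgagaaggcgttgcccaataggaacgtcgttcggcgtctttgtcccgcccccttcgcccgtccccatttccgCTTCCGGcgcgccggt
Atp5l: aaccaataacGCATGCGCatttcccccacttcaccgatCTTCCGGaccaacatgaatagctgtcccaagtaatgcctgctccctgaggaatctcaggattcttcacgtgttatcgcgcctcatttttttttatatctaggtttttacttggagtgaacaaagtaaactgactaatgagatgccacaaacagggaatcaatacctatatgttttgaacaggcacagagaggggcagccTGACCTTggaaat
Cox7a1: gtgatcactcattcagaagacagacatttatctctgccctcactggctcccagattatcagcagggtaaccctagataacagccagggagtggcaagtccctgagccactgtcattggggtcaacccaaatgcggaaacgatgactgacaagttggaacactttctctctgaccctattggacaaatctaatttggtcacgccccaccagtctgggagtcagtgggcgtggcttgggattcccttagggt

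Cox6a1 held the NRF1 core on both strands in 1 overlapping palindrome and the ETS core close to the start, and Atp5l held the NRF1 core, the ETS core and the estrogen-related receptor motif. Their mRNAs had log2 fold changes of -0.02 and 0.01. The promoter of Ndufa4l2 was not analysed here.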

How the data were processed

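Per the study's methods, liver RNA was prepared with a directional kit, read from both ends, aligned with the MGI tool to mm10 and quantified in Partek Genomics Suite with GENCODE. The table's positions are those of GRCm39. Tool versions, strand use and treatment of reads with several alignments are not given in the sources used here. The authors deposited raw counts per gene, which were tested here, RPKM values, used for gene lengths, and TPM values, used for levels per length. The deposited CPM column is a score on an adjusted library size and was not used. CPM given here was computed from counts.

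Counts were compared with edgeR 4.0.16 in R 4.3.3 (filterByExpr, TMM, two-sided quasi-likelihood test, Benjamini-Hochberg adjustment over 12967 genes, threshold 0.05, common biological coefficient of variation 0.102). The fit was also run on simulated counts drawn with the spread fitted here. That run cannot show whether the fitted spread holds for these libraries. Alternatives were DESeq2's size factors, library size alone, scaling without mtDNA genes, no count filter, the DESeq2 1.42.0 Wald test, a replicate block and leaving out each library.

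The members and lists were chosen with earlier results of these data known. Genes named were every mtDNA-encoded member, nuclear members at unadjusted p under 0.05, per complex the 2 highest and the lowest per length, core subunits of complexes I, III and V, isoform pairs and, of the other lists, those at unadjusted p under 0.05 with 6 set regulators. Any others are said to be named after their values were seen. The ATP synthase inhibitor Atp5if1 was not analysed here. Some results of the named-gene rule are not reported here.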

Additional observations from a re-analysis of the deposited data

How the results depend on the processing

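Over the alternatives, no nuclear or mtDNA-encoded member passed an adjusted p under 0.05 except when HFD-KO replicate 1 was left out. Over all genes the count at an adjusted p under 0.05 was 10, and it was 6 with library size alone, 162 with no count filter, 115 with the DESeq2 Wald test and 20 with the replicate block, and 0 (without HFD-WT replicate 2) to 705 (without HFD-KO replicate 1) when each library was left out. The nuclear members called were 0 to 1 (Ndufa4l2) and the mtDNA-encoded members called 0 to 4 when each library was left out, the most without HFD-KO replicate 1. At an unadjusted p under 0.05 the nuclear members were 4 with library size alone, 0 with the DESeq2 Wald test, 0 with the replicate block and 0 to 13 when each library was left out, and the mtDNA-encoded members 0 to 9. With library size alone the genes at an unadjusted p under 0.05 were 345 higher and 894 lower, against 551 higher and 613 lower. Over all genes, the number at this threshold also rose in both directions without either HFD-KO replicate. It fell in both directions without either HFD-WT replicate. These fits leave a lone library in a group, so the member counts with a library left out are not taken as particular to the members. When each library was left out, the median log2 fold change ranged from -0.076 to 0.024 for nuclear and from -0.256 to 0.160 for mtDNA-encoded members, and the log2 ratio of mtDNA-encoded to nuclear reads from -0.134 to 0.168. The libraries of the groups share a replicate number, and no label says that they are pairs. The deviations of same-numbered libraries from their group means correlated at -0.076 across genes. The members shifted in the same direction in both groups. Replicate 2 was below replicate 1 in 84.1% of them in HFD-WT and 79.5% in HFD-KO, against 49.8% and 50.7% of all genes tested. With the replicate block, of the named genes mt-Nd2 changed sign, to -0.014.

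Genes near 0 changed sign easily. With library size alone the log2 fold change became -0.036 for Cox7a2l, -0.018 for Ndufs3, -0.011 for Ndufs8, -0.0021 for Uqcrb, -0.016 for mt-Atp6, -0.012 for mt-Co1 and -0.037 for mt-Nd2. With the libraries left out singly, the log2 fold change of the following genes crossed 0, with ranges of -0.12 to 0.16 for mt-Atp6, -0.39 to 0.093 for mt-Atp8, -0.15 to 0.20 for mt-Co1, -0.23 to 0.13 for mt-Co2, -0.18 to 0.13 for mt-Co3, -0.23 to 0.16 for mt-Cytb, -0.26 to 0.18 for mt-Nd1, -0.26 to 0.23 for mt-Nd2, -0.27 to 0.12 for mt-Nd3, -0.37 to 0.16 for mt-Nd4, -0.40 to 0.15 for mt-Nd4l, -0.34 to 0.18 for mt-Nd5 and -0.024 to 0.42 for mt-Nd6. Of the nuclear members the ranges were -0.55 to 3.52 for Ndufa4l2, -0.048 to 0.037 for Atp5g1, -0.049 to 0.028 for Atp5g2, -0.13 to 0.077 for Cox6a1, -0.23 to 0.045 for Cox6b1, -0.017 to 0.033 for Cox7a2l, -0.17 to 0.14 for Cox7b and -0.027 to 0.14 for Cox8a. They were -0.051 to 0.17 for Ndufa7, -0.080 to 0.041 for Ndufb2, -0.059 to 0.0013 for Ndufb9, -0.045 to 0.10 for Ndufs3, -0.012 to 0.13 for Ndufs7, -0.080 to 0.14 for Ndufs8, -0.078 to 0.068 for Ndufv2, -0.14 to 0.068 for Uqcr10, -0.10 to 0.17 for Uqcrb and -0.11 to 0.0074 for Uqcrh. For the regulators they were -0.0018 to 0.16 for Gabpa, -0.16 to 0.024 for Nrf1, -0.13 to 0.069 for Ppargc1a and -0.062 to 0.23 for Ppargc1b. The cause was not tested. In all, 57 of the values of 61 genes under an alternative changed sign, 539 kept their direction and their side of the threshold, and 14 kept their direction and passed the threshold, among them 4 of Sco2 and 5 of Adarb1.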

Other observations

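Ndufa4l2 ranked 3 among the 12967 genes tested when genes were ordered by how far HFD-KO replicate 2 lay above the highest of the other 3 libraries, an order chosen after its values were seen. The ranking used CPM with 0.5 added, on which Ndufa4l2 was 8.50-fold above the next library. The transcription factor gene Cux2 ranked 2 with 0.483 and 0.327 against 0.38 and 10.4 CPM. Fabp3, a fatty acid-binding protein of heart and muscle, ranked 4 with 0.69 and 0.509 against 0.152 and 6.32 CPM. The adjusted p of these genes lay between 0.46 and 0.617 by edgeR.

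Sco2, the copper chaperone of complex IV, kept a log2 fold change between 0.38 and 0.55 over the alternatives, with an adjusted p of 0.233 by edgeR, 0.00073 without HFD-KO replicate 2 and 0.9998 without HFD-WT replicate 2. It overlaps Tymp on the same strand, whose log2 fold change was 0.41. Sco2 was higher in 2 of 2 HFD-KO libraries, while the 14 nuclear members grouped under complex IV had a median log2 fold change of -0.044.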
